A study of Mus musculus with 16 samples.

Results

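The genes described are 37 interferon-stimulated genes of the mouse, followed through 16 RNA-seq libraries of skin from mice under chronic ultraviolet B (UVB) exposure and from unexposed mice. They were taken by name from a table of 24421 genes, as genes that interferons are known to switch on, and all 37 had rows in it. The mice were female SKH-1, a hairless strain in which skin cancer caused by light is studied. Exposed mice received 60 mJ/cm2 of UVB in 2 sessions per week, and control mice received no agent. Epidermis was sampled from both arms at weeks 2, 15 and 25. Whole skin of control mice and skin tumors of exposed mice were sampled at week 25. Each of the 8 groups held 2 libraries, named here by the numbers 0 and 1 of their titles. The labels give no age and no tumor grade. They do not tie the 2 libraries of a group to different mice, so the spread behind each p-value may be partly or wholly technical.

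Interferons are cytokines that cells release on sensing viral or misplaced nucleic acid. Type I interferons act through the receptor chains IFNAR1 and IFNAR2 and the JAK kinases on a complex with STAT2 and IRF9, which binds the interferon-stimulated response element of target promoters. Interferon gamma acts on the gamma-activated site. The genes they induce block viral replication, sense nucleic acid, tag proteins with ISG15 and prepare peptides for display on MHC class I. Keratinocytes, the main cells of the epidermis, carry these receptors and answer to both types.

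Promoter sequence is shown for 6 members, to set the letters beside genes that the results below turn on. Members with a window were ranked by how many of 4 comparisons called them (UVB at weeks 2, 15 and 25, and tumor against whole skin). Ifi35 was called in 3 and the other 5 in 2, with ties broken by the smallest p for UVB as the mean over weeks, so further members tied at 2 are not shown. RefSeq promoter windows (build GRCm38.p6, 250 bases before the gene start) were matched for 28 of the 37 members, and Mx1, Mx2, Usp18, Ifi27l2a, Zbp1, Dhx58, Rtp4, Parp14 and Parp9 had none. Each stretch below is 150 bases, 5′ to 3′ on the gene's own strand, ending before the gene's first GENCODE exon except in Gbp2. Capitals mark the core of the interferon-stimulated response element, searched as GAAANNGAAA on both strands.
Gbp2: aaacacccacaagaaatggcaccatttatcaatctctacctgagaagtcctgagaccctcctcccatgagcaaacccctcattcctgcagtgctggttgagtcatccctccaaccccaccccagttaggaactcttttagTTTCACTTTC
Gbp3: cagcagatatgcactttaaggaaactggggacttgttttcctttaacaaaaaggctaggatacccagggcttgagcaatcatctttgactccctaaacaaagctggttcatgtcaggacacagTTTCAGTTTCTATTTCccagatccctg
Bst2: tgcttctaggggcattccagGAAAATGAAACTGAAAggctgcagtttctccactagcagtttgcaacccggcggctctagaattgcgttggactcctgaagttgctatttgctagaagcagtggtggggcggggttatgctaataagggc
Ifi35: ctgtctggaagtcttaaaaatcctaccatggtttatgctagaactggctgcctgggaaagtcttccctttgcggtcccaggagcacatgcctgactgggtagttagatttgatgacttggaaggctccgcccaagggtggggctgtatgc
Ifitm3: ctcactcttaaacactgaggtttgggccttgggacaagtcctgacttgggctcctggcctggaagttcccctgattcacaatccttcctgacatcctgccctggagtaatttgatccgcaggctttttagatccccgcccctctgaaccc
Ifi44: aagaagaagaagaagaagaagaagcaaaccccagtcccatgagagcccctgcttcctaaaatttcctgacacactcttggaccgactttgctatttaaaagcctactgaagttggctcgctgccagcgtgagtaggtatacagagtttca
The Gbp2 stretch lies at chr3:142620464-142620613 on the plus strand, and its last 12 bases, which hold the motif, lie in the first exon of a GENCODE transcript. The Gbp3 stretch is chr3:142559876-142560025 on the plus strand, and that of Bst2 is chr8:71537473-71537622 on the minus strand. Both hold 2 overlapping matches. The stretches of Ifi35 (chr11:101448257-101448406 on the plus strand), Ifitm3 (chr7:141010771-141010920 on the minus strand) and Ifi44 (chr3:151749961-151750110 on the minus strand) hold no match to these letters.

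The response element core was found in the 250 bases before the start in 10 of the 28 matched members (35.7%): Ifit1, Ifit3, Isg15, Rsad2, Stat2, Bst2, Gbp2, Gbp3, Gbp7 and Trim30a. Of all 27025 genes with a window, 936 (3.46%) held it. The core of the gamma-activated site, searched as TTCNNNGAA, which reads the same on both strands, was found in 5 members (17.9%: Ifit2, Irf1, Bst2, Gbp7 and Psmb8) against 8.13% of all genes. In Bst2 the 2 motifs share bases. These matches are a description of the letters, since the members are known interferon targets by choice.

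**Figure D1:**
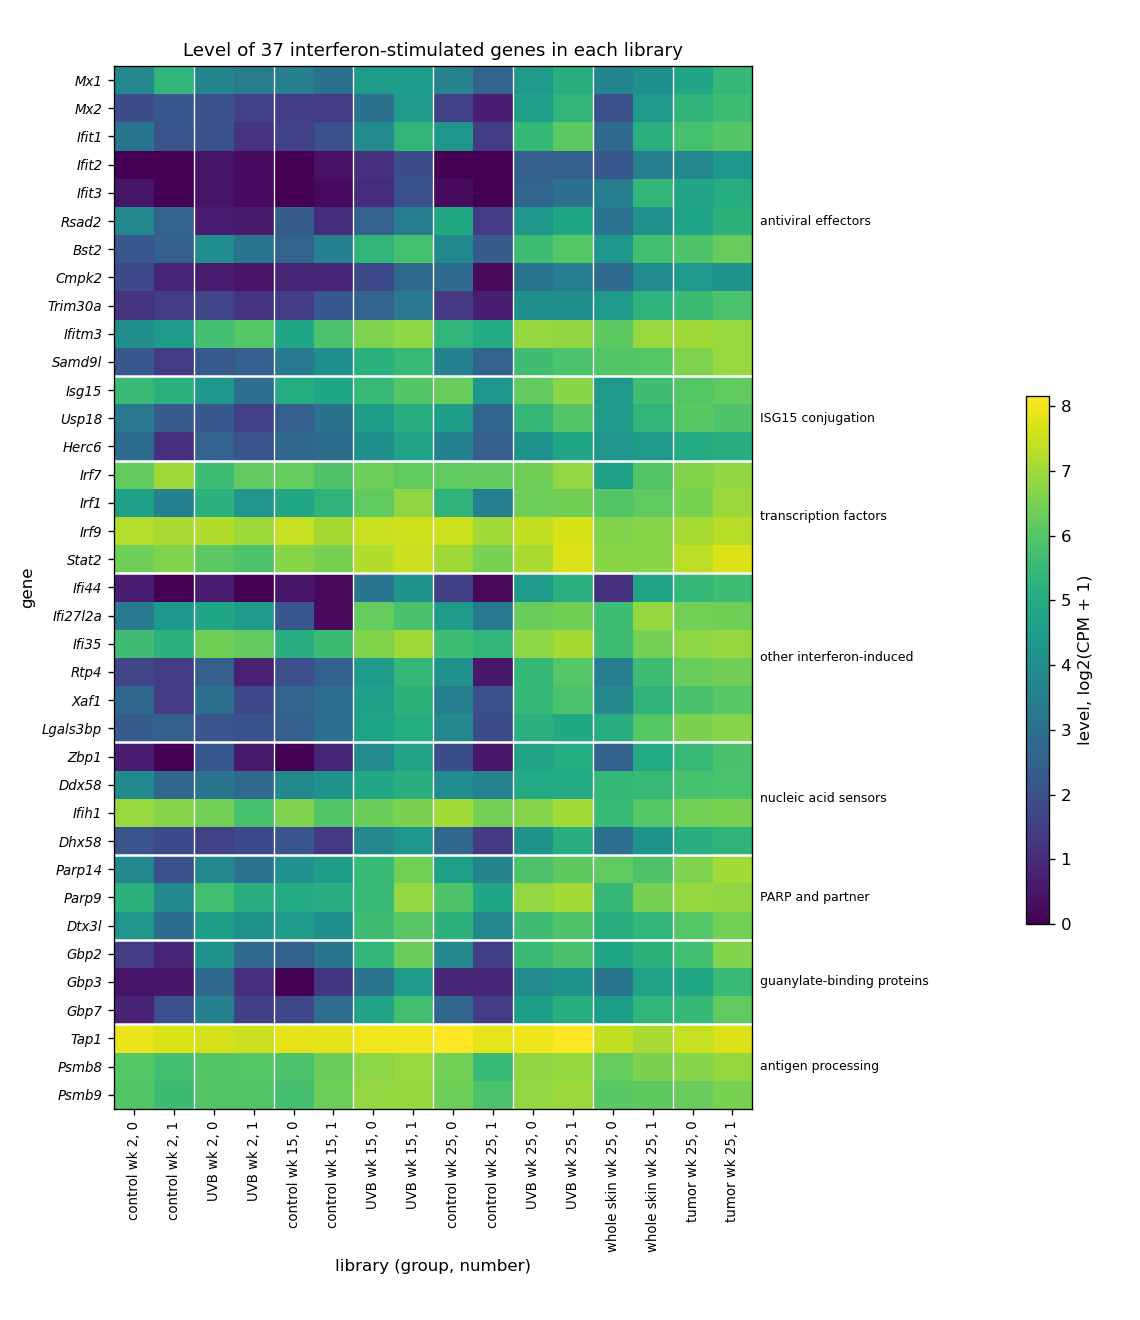
Level of the 37 members (rows, grouped by role) in each of the 16 libraries (columns), as log2(CPM + 1), where CPM is a gene's count scaled to a common library size. Tap1, Irf9, Ifih1 and Stat2 are bright in every library, while Ifit2, Ifit3, Ifi44, Zbp1 and Gbp3 are near 0 in control epidermis and brighter in UVB epidermis of weeks 15 and 25.

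Library totals ran from 2905165 counts (week 2 control 1) to 7959503 (whole skin control 0), and the other 14 held 4854612 to 7175363. The summed level of 8 keratinocyte markers was 4591 to 5573 CPM in epidermis and 2889 to 3540 in whole skin and tumor. The sum of 7 skeletal muscle markers was 20.5 to 88.6 CPM in epidermis and 1744 to 3380 in whole skin and tumor, all 4 of which thus held muscle RNA. Duplicates had been removed before counting, which holds the most covered gene of each library at 1.83 to 2.11 counts per base of exon. Among the members only Ifitm3 came near that limit, at up to 1.39, and folds of abundant genes can be understated.

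The members spread widely between the 2 libraries of some groups, and mostly in one direction. The mean of log2(CPM + 1) over the 37 members was 3.42 and 3.06 in week 2 controls 0 and 1, and 3.62 and 3.09 in week 2 UVB 0 and 1. It was 3.31 and 3.47 in week 15 controls and 4.85 and 5.42 in week 15 UVB. At week 25 it was 4.19 and 2.98 in controls and 5.42 and 5.75 in UVB epidermis. The 4 UVB epidermis libraries of weeks 15 and 25 thus lie above all 6 control libraries, while the week 2 groups overlap. Whole skin gave 4.55 and 5.51, and the tumors gave 5.92 and 6.18.

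Week 25 control 0 stood above its partner in 35 of 37 members, at least 2-fold in 20, where 2.96% of all genes with at least 1 CPM did so. It was the highest of the 6 control epidermis libraries for 23 members, a count not made over all genes. Folds in this paragraph are of CPM + 1, which makes them smaller than those of CPM for genes at low levels. Whole skin control 1 stood above control 0 in 35 members, at least 2-fold in 17 (12.6% of all genes). The week 2 UVB libraries differed less, with 32 members higher in library 0 and 7 at least 2-fold (1.42% of all genes). In week 15 UVB 35 members were higher in library 1, 6 of them at least 2-fold (1.4% of all genes). In week 2 controls 9 members were at least 2-fold higher in library 0 and 3 in library 1 (7.26% and 5.72% of all genes). In the tumors no member differed 2-fold. Why the libraries of a group differ was not tested.

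**Figure D2:**
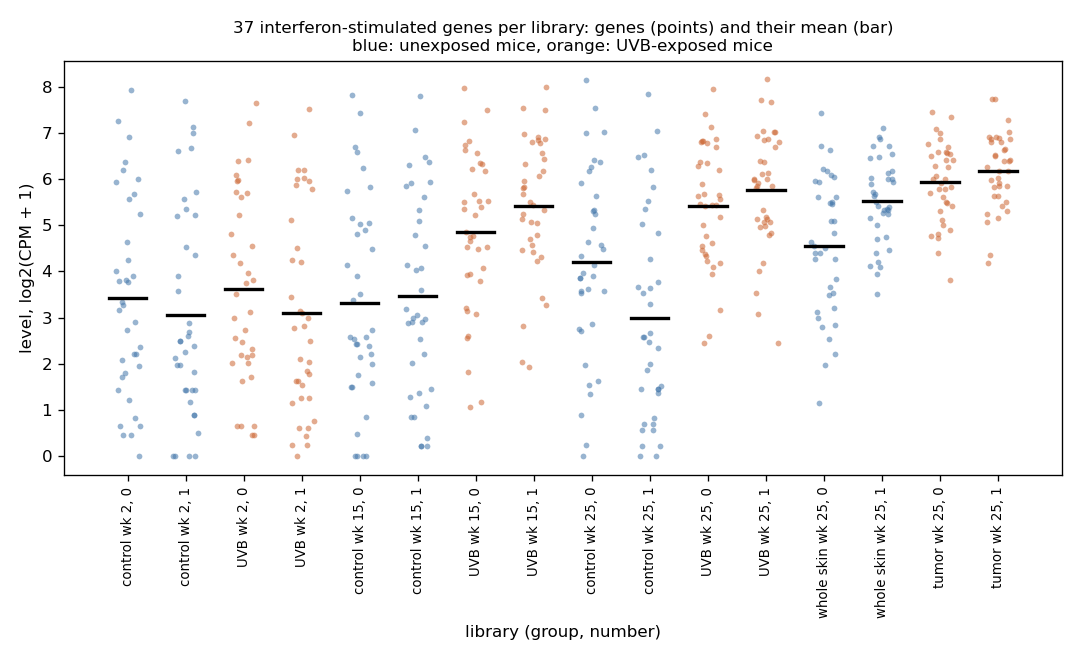
Distribution of the 37 members in each library, as log2(CPM + 1). Points are genes and bars their mean, blue for unexposed and orange for UVB-exposed mice. The bars of UVB epidermis at weeks 15 and 25 (4.85 to 5.75) lie above those of all control epidermis libraries (2.98 to 4.19), and the tumor bars are highest, at 5.92 and 6.18.

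UVB raised few members at week 2 and many later. A member was called where the adjusted p of edgeR's quasi-likelihood test (Benjamini-Hochberg over all genes tested) was under 0.05, and all 37 passed the filter on low counts in every comparison. At week 2, 2 members were higher under UVB (Ifitm3 and Ifi35) and none lower, where 8.09% and 9.74% of all genes were called higher and lower. At week 15, 11 members were higher and none lower, against 1.85% and 1.64% of all genes. At week 25, 24 were higher and none lower, against 10.6% and 10.9%. The 11 members of week 15 were all among the 24 of week 25.

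The median log2 difference over the members was 0.08 at week 2, 1.71 at week 15 and 1.85 at week 25, beside -0.03, -0.01 and 0.01 over all genes. With single libraries left out it was -0.26 to 0.43 at week 2 and 1.40 to 2.04 at week 15. At week 25 it was 3.29 without control 0 and 1.30 without control 1. Both UVB libraries lay above both controls for 9 members (24.3%) at week 2, below the 31.7% of all genes that did so. They lay above for 35 of 37 members at week 15 (28.5% of all genes) and for 32 at week 25 (35.4%), and 31 did so at both weeks. Isg15, Rsad2, Irf9, Ifih1 and Tap1 overlapped at week 25. In bulk libraries, fewer cells of a type and less RNA per cell cannot be told apart.

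The counts depend on single libraries. At week 15 the 11 calls became 1 without control 0, 1 without UVB 1 and 5 without UVB 0. At week 25 the 24 calls became 7 without control 1, 12 without UVB 1 and 13 without UVB 0, and were 26 without control 0. Taken as a mean over the weeks, with week as an additive term, UVB raised 25 members and lowered none (14.4% and 15.1% of all genes). That count stayed between 20 and 28 whichever of the 12 epidermis libraries was left out. The 12 members not called were Mx1, Ifit1, Isg15, Usp18, Rsad2, Irf7, Irf9, Stat2, Ddx58, Ifih1, Cmpk2 and Tap1.

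**Figure D3:**
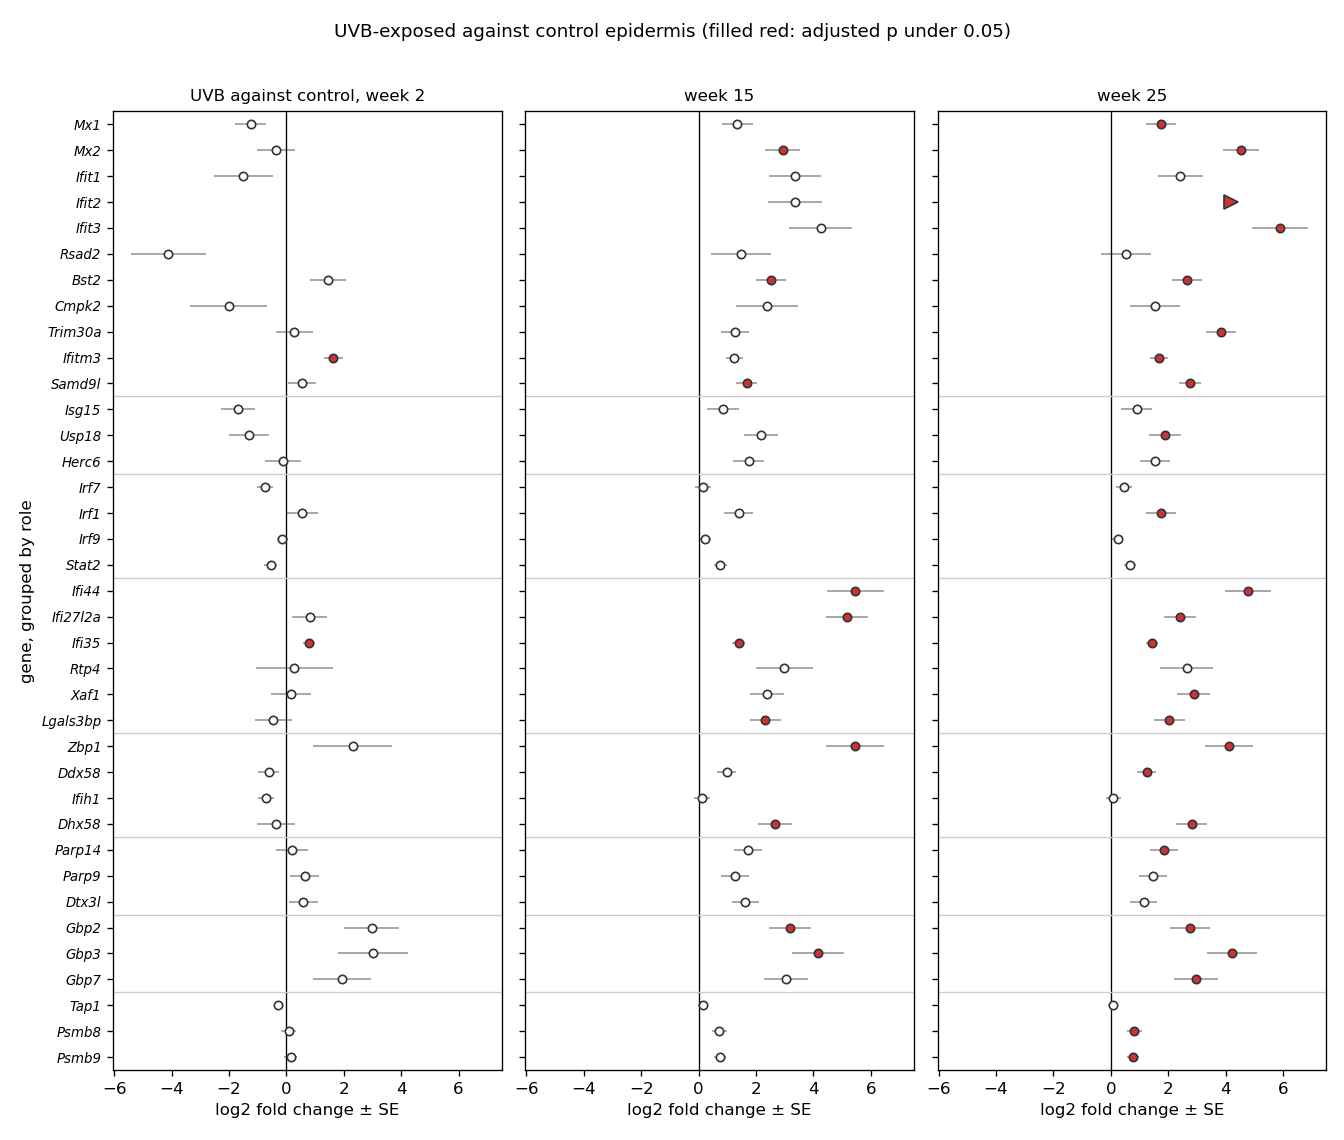
Log2 fold change of each member, UVB against control epidermis, at weeks 2, 15 and 25, with its standard error, filled red where the adjusted p was under 0.05. The triangle for Ifit2 at week 25 is a lower bound. Ifit2, Ifit3 and Ifi44 are left out at week 2, where neither group had more than 3 counts of them. Points scatter around 0 at week 2 and lie right of 0 for all 37 members at weeks 15 and 25.

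Of the 11 antiviral effectors, 1 rose at week 2, 3 at week 15 and 8 at week 25. Ifitm3 (mm10 chr7:141009590-141010744), a membrane protein that blocks virus entry, had the highest mean level of them per kilobase of exon over all groups and the smallest p for the mean over weeks. It stood at 15.2 and 21.9 CPM in week 2 controls and at 51.6 and 63.7 under UVB. At week 15 the values were 27.0 and 56.6 in controls and 94.0 and 108 under UVB, and at week 25 they were 39.1 and 31.4 against 116 and 111. The groups did not overlap at any week. Its log2 fold change was 1.64 ± 0.33 (SE, adjusted p = 0.0103) at week 2, 1.24 ± 0.30 (adjusted p = 0.0504) at week 15 and 1.69 ± 0.31 (adjusted p = 0.00606) at week 25. Without week 15 control 1 the week 15 value was 1.89 and passed the test (adjusted p = 0.00675), and without control 0 it was 0.82 (adjusted p = 0.255).

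Ifit2 and Ifit3 were almost silent in control epidermis. Ifit2 had 0 counts in both week 25 controls and 4.42 and 4.43 CPM under UVB, at least 18-fold higher with a floor of 3 counts over the control group (adjusted p = 0.0058). Ifit3 had 1 count over both controls and 5.03 and 7.44 CPM under UVB, a ratio of 75 with a 95% counting interval of 13.1 to 3001 (adjusted p = 0.00446). Ifit3 lies beside a near-identical copy, Ifit3b, on chromosome 19, so reads may be split between them. The GTPases Mx1 and Mx2, the tether protein gene Bst2, Trim30a and Samd9l also rose at week 25, by 1.74 (Mx1) to 4.54 (Mx2) on the log2 scale. Mx2, Bst2 and Samd9l had risen at week 15. Ifit1, Rsad2 and Cmpk2 were called at no week.

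Of the 3 genes of ISG15 conjugation, none rose at weeks 2 or 15 and 1, Usp18, at week 25. Isg15 (mm10 chr4:156199424-156200818), the ubiquitin-like modifier itself, had the highest mean level of the 3 per kilobase. At week 2 it read 46.4 and 35.8 CPM in controls and 19.5 and 6.91 under UVB. Week 15 gave 32.2 and 26.5 against 45.0 and 61.4, and week 25 gave 75.3 and 18.3 against 72.4 and 103. Both UVB libraries were thus below the controls at week 2 and above them at week 15, and they overlapped at week 25. No week passed the test (adjusted p 0.0712, 0.435 and 0.244 in order). Without week 25 control 0, week 25 gave a log2 fold change of 2.26 that passed (adjusted p = 0.0339), and without control 1 it was 0.22 (adjusted p = 0.796). DESeq2 called the lower level at week 2 (log2 -1.70, adjusted p = 0.0162).

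Herc6, the main ISG15 ligase of the mouse, was higher under UVB as the mean over weeks (log2 1.17 ± 0.39, adjusted p = 0.0399). It read 6.44 and 1.26 CPM in week 2 controls against 4.92 and 3.28 under UVB. The week 15 values were 5.60 and 6.36 against 15.9 and 25.0, and at week 25 10.9 and 4.53 against 17.2 and 27.5. The groups overlapped at week 2 and were apart later. Usp18, which removes ISG15 and dampens the type I receptor, rose by 1.90 ± 0.56 on the log2 scale at week 25 (adjusted p = 0.0349).

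The 4 transcription factors had the smallest median log2 differences of the 8 roles at weeks 15 and 25, at 0.49 and 0.57, and 1 of them rose, at week 25. Irf9 (mm10 chr14:55603985-55610030), the DNA-binding partner of STAT2, was abundant everywhere in epidermis. It read 151 and 139 CPM in week 2 controls and 148 and 123 under UVB, 172 and 132 against 178 and 184 at week 15, and 185 and 130 against 169 and 202 at week 25. Its log2 fold change was 0.11 ± 0.12 as the mean over weeks (adjusted p = 0.495).

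Irf1 (mm10 chr11:53770014-53778374), a factor induced by interferon gamma, was the one that rose. It read 23.7 and 10.9 CPM in week 2 controls and 36.1 and 18.1 under UVB, which overlap. By week 15 the values were 28.6 and 38.9 against 71.0 and 110, and at week 25 38.3 and 10.5 against 80.2 and 82.1. The log2 fold change was 1.75 ± 0.52 at week 25 (adjusted p = 0.0376) and 1.26 ± 0.32 as the mean over weeks (adjusted p = 0.0123). Irf7, the amplifier of type I interferon transcription, and Stat2 were called at no single week.

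Of the 4 nucleic acid sensors, none rose at week 2, 2 at week 15 and 3 at week 25. Zbp1 (mm10 chr2:173206612-173218922), a sensor of left-handed nucleic acid that can start cell death, had the smallest p of the 4. It read 0.568 and 0 CPM in week 2 controls and 3.59 and 0.518 under UVB. At week 15 it read 0 and 0.794 against 14.3 and 26.4, and at week 25 2.93 and 0.469 against 26.2 and 32.4. The gap was wide at the later weeks, with log2 fold changes of 5.45 ± 1.01 (adjusted p = 0.0242) and 4.12 ± 0.84 (adjusted p = 0.00891).

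Ifih1 (mm10 chr2:62595793-62646255), which encodes the RNA sensor MDA5, had the highest mean level of the 4 per kilobase and did not pass the test at any week. It read 119 and 101 CPM in week 2 controls and 83.7 and 54.4 under UVB. Week 15 gave 95.1 and 60.5 against 78.9 and 93.0, and at week 25 129 and 87.4 against 102 and 128. UVB was lower without overlap at week 2, and the groups overlapped later. Dhx58, which encodes LGP2, rose at weeks 15 and 25 (log2 2.66 ± 0.58 and 2.81 ± 0.55, adjusted p = 0.0365 and 0.00791). Ddx58, which encodes RIG-I, rose at week 25 (1.25 ± 0.33, adjusted p = 0.0248).

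Of the 3 guanylate-binding proteins, GTPases that attack pathogen vacuoles, 2 rose at week 15 and all 3 at week 25. Gbp2 read 1.71 and 0.842 CPM in week 2 controls and 17.0 and 5.87 under UVB. The week 15 values were 4.80 and 8.10 against 40.8 and 79.7, and at week 25 13.4 and 1.88 against 46.5 and 55.1. The groups were apart at every week, and the log2 fold change was 2.96 ± 0.43 as the mean over weeks (adjusted p = 0.000626). At week 2 alone it was 2.97 ± 0.96 and missed the threshold (adjusted p = 0.0553), which DESeq2 passed (3.03, adjusted p = 0.00303).

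Gbp3 read 0.379 and 0.421 CPM in week 2 controls and 5.67 and 1.21 under UVB. By week 15 the values were 0 and 1.43 against 7.87 and 21.1, and at week 25 0.862 and 0.782 against 14.3 and 17.0. UVB was higher without overlap at every week. The log2 fold change was 4.16 ± 0.90 at week 15 (adjusted p = 0.0364) and 4.22 ± 0.88 at week 25 (adjusted p = 0.0101). The Gbp genes form a cluster of similar sequences on chromosome 3, and reads may be split among them.

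Of the 3 genes Parp14, Parp9 and Dtx3l, which encode ADP-ribosyltransferases and the ubiquitin ligase partner of PARP9, none rose at weeks 2 or 15 and Parp14 rose at week 25. Parp9 read 36.8 and 13.9 CPM in week 2 controls and 51.0 and 33.5 under UVB, 31.4 and 32.9 against 44.6 and 114 at week 15, and 59.3 and 27.4 against 112 and 129 at week 25. Dtx3l read 18.0 and 6.32 against 22.5 and 17.4, 21.4 and 15.9 against 49.9 and 66.4, and 36.9 and 12.7 against 49.6 and 59.4 in the same order. Both overlapped at week 2 and were apart later. As the mean over weeks both rose by 1.15 ± 0.29 on the log2 scale (adjusted p = 0.011 for Parp9 and 0.0108 for Dtx3l). Their exons overlap on opposite strands on chromosome 16, so reads may be shared between them.

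Of the 3 antigen processing genes, which lie together in the MHC on chromosome 17, none rose at weeks 2 or 15 and the 2 immunoproteasome genes Psmb8 and Psmb9 rose at week 25. Psmb9 (mm10 chr17:34182099-34187330) read 60.6 and 46.7 CPM in week 2 controls and 62.0 and 61.3 under UVB. At week 15 it read 52.6 and 81.2 against 113 and 115, and at week 25 81.2 and 56.1 against 112 and 121. The UVB libraries were narrowly above the controls at week 2 and clearly above later, with a log2 fold change of 0.77 ± 0.22 at week 25 (adjusted p = 0.0341).

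Tap1 (mm10 chr17:34187556-34197225), the peptide transporter subunit whose gene starts next to Psmb9 on the other strand, was high in all epidermis libraries. In week 25 UVB epidermis its mean per kilobase of exon was 89.9 CPM, beside 145 for Psmb9. It read 243 and 206 CPM in week 2 controls and 198 and 182 under UVB, 225 and 223 against 249 and 252 at week 15, and 280 and 229 against 246 and 284 at week 25. Its log2 fold change was -0.03 ± 0.10 as the mean over weeks (adjusted p = 0.859; -0.07 to 0.07 with single libraries left out), beside 0.56 ± 0.15 for Psmb9 (adjusted p = 0.014). The difference between these 2 genes was not tested.

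Of the 6 remaining members, 1 rose at week 2, 4 at week 15 and 5 at week 25, and all 6 rose as the mean over weeks. Ifi35 (mm10 chr11:101448412-101458701), a leucine zipper protein, was the only member called at all 3 weeks. It read 49.8 and 36.2 CPM in week 2 controls and 82.4 and 71.9 under UVB, 34.6 and 47.5 against 97.5 and 125 at week 15, and 48.8 and 40 against 109 and 131 at week 25. All 6 UVB libraries lay above all 6 controls. The log2 fold change was 0.79 ± 0.22 (adjusted p = 0.0336), 1.40 ± 0.22 (adjusted p = 0.0122) and 1.44 ± 0.22 (adjusted p = 0.00304) in order of week.

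Ifi44, Ifi27l2a and Lgals3bp rose at weeks 15 and 25 and Xaf1 at week 25. Ifi44 had 3 counts over both week 15 controls and read 8.19 and 17.7 CPM under UVB, a ratio of 48.7 (95% counting interval 16.4 to 239, adjusted p = 0.0226). Ifi27l2a read 3.60 and 0.159 CPM in week 15 controls and 73.5 and 55.6 under UVB (log2 5.17 ± 0.73, adjusted p = 0.00807). Its exons overlap those of Ifi27, so reads may be shared. Rtp4 was higher as the mean over weeks only (log2 2.31 ± 0.67, adjusted p = 0.0219).

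At week 2 members lay on both sides of the controls, and 1 control library stood apart in other genes. The sum of 6 genes kept as a check of RNA quality (Rplp0, Rpl13, Actb, Gapdh, Malat1 and Neat1) was 5302 CPM in week 2 control 1 and 1707 to 3081 in the other 15 libraries, and its part in the week 2 values was not tested. Without that library 1 member was called and the median log2 difference was -0.18, with 16 of 37 members positive (20 with it). Both UVB libraries lay below both controls for 11 members, none of them called, where 28.3% of all genes did so: Mx1, Ifit1, Isg15, Usp18, Rsad2, Irf7, Stat2, Ifih1, Cmpk2, Tap1 and Lgals3bp. Rsad2, which encodes the antiviral enzyme viperin and is singled out here after its values were seen, was lowest. It read 13.1 and 5.05 CPM in controls against 0.567 and 0.518 under UVB (log2 -4.11 ± 1.31, adjusted p = 0.0526). It passed in DESeq2 (adjusted p = 0.00228) and when only the week 2 libraries were fitted (0.0339), and not with any of the 4 libraries left out (0.0793 to 0.229). Of these 11, 9 had both UVB libraries above both controls at week 15, and 7 at week 25. By edgeR, 11 members had an unadjusted p under 0.05 (35.3% of all genes), and DESeq2 called 4 members higher and 2 lower (22.4% of all genes in either direction).

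The change of the UVB effect with time was tested as an interaction. Between weeks 2 and 25 it rose for 6 members, Mx1, Mx2, Stat2, Ddx58, Dhx58 and Trim30a, and fell for none, where it rose for 3.33% and fell for 4.59% of all genes. In Mx2, controls read 2.84 and 3.79 CPM at week 2 and 2.07 and 0.625 at week 25, while UVB read 3.02 and 2.07 and then 23.3 and 39.3. The UVB effect was 4.92 ± 0.91 larger on the log2 scale (adjusted p = 0.0149). The count was 0 without week 2 UVB 1, 0 without week 25 control 1, 1 without week 2 UVB 0 or either week 25 UVB library, 2 without week 2 control 1 and 15 without week 25 control 0.

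Between weeks 2 and 15, edgeR called no member and no gene (0%), although the effect was larger at week 15 for 35 of 37 members, by a median of 1.30. An unadjusted p under 0.05 was found for 16 members (8.83% of all genes), and DESeq2 called 2 (0.371% of all genes). The median was 0.92 to 1.98 with single libraries left out. Between weeks 15 and 25, edgeR and DESeq2 called no member, and 2 had an unadjusted p under 0.05 (9.76% of all genes). The median difference of the effects there was 0.04, with 21 of 37 members positive. It was 1.07 with 36 positive without week 25 control 0, and -0.30 with 8 positive without week 25 control 1.

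In control epidermis no member changed with time by edgeR. From week 2 to week 15, 0.0223% of all genes rose and 0% fell, 4 members had an unadjusted p under 0.05 (28.6% of all genes), and DESeq2 called 2 higher and 2 lower (9.62% of all genes in either direction). From week 2 to week 25, 8.47% of all genes rose and 5.24% fell, 4 members had an unadjusted p under 0.05 (36.5%), and DESeq2 called 3 higher and 1 lower (22.5% of all genes). The members' median log2 difference was 0.68 at week 25 and -0.35 without week 25 control 0.

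**Figure D4:**
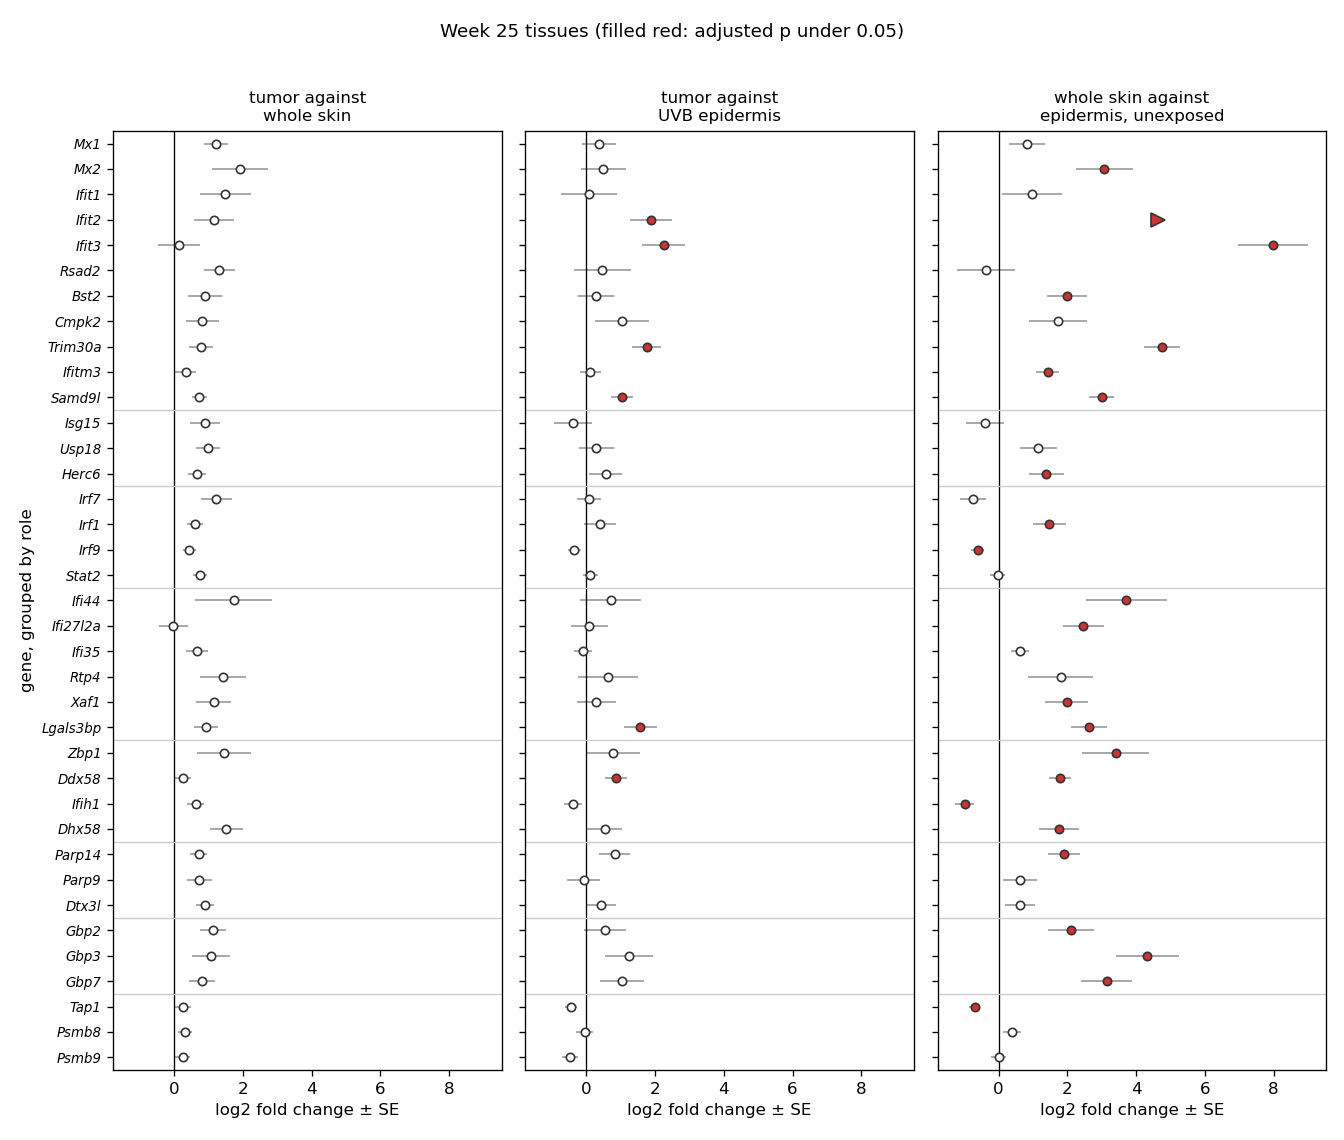
Log2 fold change of each member with its standard error for 3 comparisons of week 25 tissues, filled red where the adjusted p was under 0.05. The triangle for Ifit2 is a lower bound. In tumor against whole skin 36 of 37 points lie right of 0 and none is filled, while Tap1, Irf9 and Ifih1 are filled left of 0 in whole skin against epidermis.

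Tumors had the highest levels of most members. For 25 of 37 the highest of all 16 libraries was a tumor, and the share of all genes that peaked there was not counted. Against whole skin of unexposed mice, 36 members were higher in tumor, with a median log2 difference of 0.82 (all genes: -0.06), and 34 had both tumor libraries above both whole skin libraries (21.5% of all genes). None was called by edgeR or DESeq2 (0% of all genes by edgeR), and 13 had an unadjusted p under 0.05 (5.55% of all genes). Whole skin control 0 was the lowest of the 4 libraries for 34 members, which was not counted over all genes either. With whole skin control 0 left out 20 members were called higher, and with control 1 left out 34, where the lone control is assumed to vary as the tumors do. In these 2 fits 19.9% and 36.2% of all genes were called in either direction, and the members' median was 0.55 and 1.33.

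Mx2 read 2.95 and 20 CPM in whole skin and 38.4 and 48.7 in tumor. Zbp1 read 4.78 and 30.9 against 44.2 and 55.7, and Gbp2 read 27.6 and 36.6 against 50.5 and 97.2. In each of the 3 the tumors were above both whole skin libraries, which differed from each other by more than the tumors did for Mx2 and Zbp1. Isg15 read 20 and 49.8 CPM against 63.3 and 70.6. Ifitm3 read 67.0 and 119 against 127 and 117, which overlap.

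Against UVB epidermis of the same week, 6 members were higher in tumor (Ifit2, Ifit3, Ddx58, Trim30a, Lgals3bp and Samd9l) and none lower, beside 16.8% and 12.7% of all genes. Trim30a, an inhibitor of inflammatory signalling, read 16 and 15.2 CPM in UVB epidermis and 47.5 and 56.6 in tumor (log2 1.75 ± 0.41, adjusted p = 0.00577). The count became 0 without UVB epidermis 1, 1 without UVB epidermis 0, 1 without tumor 1 and 2 without tumor 0. Fitted on the compared libraries alone, 15 members were higher and 3 lower, 48.6% of the members beside 48.5% of all genes called. The sum of 8 fibroblast markers was 145 and 36.3 CPM in this epidermis and 1139 and 1567 in tumor, and its part in the differences was not tested.

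Without exposure, the members differed between whole skin and epidermis of week 25. Here 20 members were higher in whole skin (31.9% of all genes) and 3 lower (23.7%), Tap1, Ifih1 and Irf9. Tap1 read 280 and 229 CPM in epidermis and 170 and 136 in whole skin (log2 -0.70 ± 0.17, adjusted p = 0.00419). Ifih1 read 129 and 87.4 against 44.3 and 62.6 (-0.99 ± 0.27, adjusted p = 0.00776), and Irf9 read 185 and 130 against 97.6 and 104 (-0.60 ± 0.19, adjusted p = 0.0161). None of the 3 overlapped. All genes had a median of 0.18 in this comparison.

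Samd9l, read at 10.9 and 5 CPM in epidermis and 60.5 and 63.0 in whole skin, rose by 3.0 ± 0.36 (adjusted p = 2.50e-05). Ifit3 had 1 count over both epidermis libraries against 10.5 and 41.0 CPM, a ratio of 263 (95% counting interval 46.9 to 10423). Ifit2 had none against 3.66 and 10.3 CPM, at least 24.8-fold higher in whole skin. The 20 rises became 10 without control epidermis 1, 11 without whole skin 1 and 11 on the compared libraries alone (39.3% of all genes called there in either direction), and were 27 without control epidermis 0. The falls became 1 without control epidermis 0 and 1 on the compared libraries alone. This comparison shares its epidermis with the week 25 UVB comparison and its whole skin with the tumor comparison.

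Transcripts of the 10 interferon genes looked up were rare, and other Ifna genes were not looked up. Of these 10 ligand genes, Ifna1, Ifna2, Ifna4, Ifna5, Ifne and Ifnl3 had no count in any library. Ifnb1 and Ifnl2 had at most 2 counts in one. Ifng, which encodes interferon gamma, read 0 to 0.636 CPM in control epidermis, 0.189 and 0 in week 2 UVB, 2.20 and 1.87 in week 15 UVB and 1.22 and 0.886 in week 25 UVB. It was higher under UVB as the mean over weeks (log2 2.29 ± 0.60, adjusted p = 0.0132). No single week passed the test (adjusted p 0.515, 0.177 and 0.107 in order), and no library held more than 14 counts of it. Ifnk, the type I interferon of keratinocytes, had no count in control or week 2 epidermis, 0.157 CPM in 1 week 15 UVB library and 0.610 CPM in 1 week 25 UVB library. It read 0.102 and 2.14 CPM in whole skin and 5.37 and 4.50 in tumor, and was higher in tumor than in UVB epidermis (log2 3.87 ± 1.25, adjusted p = 0.0434).

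Of 6 further signalling factors, 1 rose at week 25 and none fell, where 10.6% of all genes rose and 10.9% fell. It was Irf8, a factor of myeloid cells, which read 2.84 and 0 CPM in week 2 controls and 4.73 and 3.28 under UVB. Week 15 gave 1.80 and 4.61 against 8.82 and 6.72, and week 25 gave 1.55 and 0.782 against 13.4 and 12.6. The groups were apart at all weeks, and the log2 fold change was 3.47 ± 0.71 at week 25 (adjusted p = 0.00939).

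Of 9 receptors and kinases, 2 rose and 1 fell at week 25, where 10.6% of all genes rose and 10.9% fell. The fall was that of Jak1 (log2 -0.77 ± 0.23, adjusted p = 0.0364). At week 2 Jak2 rose, and Ifnar1 (-0.57 ± 0.16, adjusted p = 0.0326) and Ifnlr1 (-1.23 ± 0.27, adjusted p = 0.0132) fell. Ifnar2 read 3.79 and 1.88 CPM in week 25 controls and 18.0 and 12.1 under UVB (log2 2.41 ± 0.47, adjusted p = 0.00784), and Jak2 rose by 0.79 ± 0.23 at week 25 (adjusted p = 0.0329). Of 7 negative regulators 4 rose and none fell at week 25. The smallest p were those of the DNA exonuclease gene Trex1 (1.40 ± 0.25, adjusted p = 0.00588) and the nucleotide hydrolase gene Samhd1 (1.18 ± 0.30, adjusted p = 0.0201), and the largest log2 fold change was that of Socs1, an inhibitor of JAK kinases (1.78 ± 0.46, adjusted p = 0.0225). Of 14 further nucleic acid sensing genes 12 were tested, and at week 25 5 rose and 1 fell, Mavs (log2 -0.70 ± 0.18, adjusted p = 0.0217). Ifi204 rose by 2.63 ± 0.51 (adjusted p = 0.00782) and the kinase gene Eif2ak2 by 1.58 ± 0.33 (adjusted p = 0.0104).

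Of 9 further antigen presentation genes, 3 rose and 1 fell at week 25, beside 10.6% and 10.9% of all genes. The immunoproteasome subunit Psmb10 read 20.2 and 16.4 CPM in controls and 63.3 and 62.9 under UVB (log2 1.79 ± 0.27, adjusted p = 0.00304). Nlrc5, an activator of MHC class I genes, fell by 0.72 on the log2 scale (SE 0.22, adjusted p = 0.0396). It read 459 and 389 CPM in controls and 216 and 298 under UVB, without overlap.

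**Figure D5:**
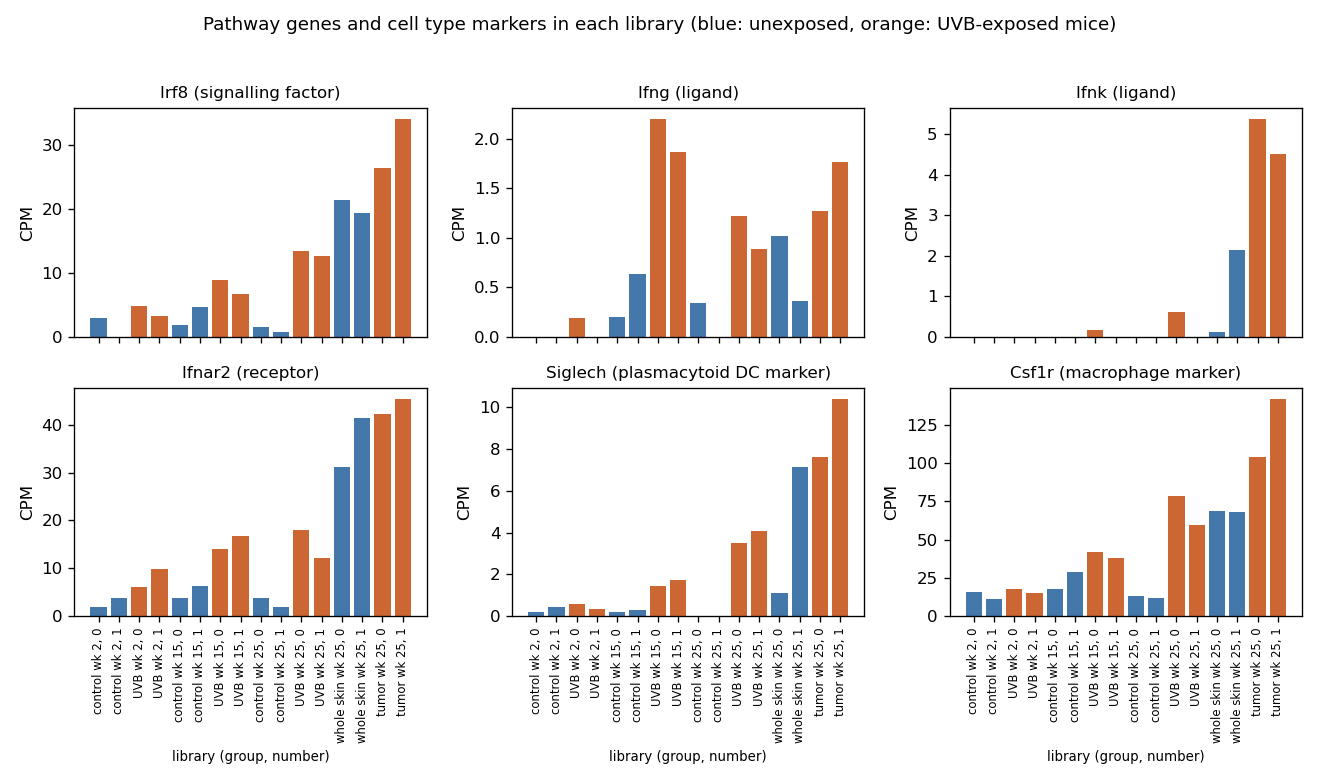
CPM of 4 interferon pathway genes and 2 cell type markers in each library, blue for unexposed and orange for UVB-exposed mice. Bars of Siglech and Csf1r are higher in UVB epidermis of weeks 15 and 25 than in control epidermis, and highest in tumor (7.63 and 10.4 CPM for Siglech, 104 and 142 for Csf1r).

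Some markers of other cells moved with the members. Siglech, a defining marker of plasmacytoid dendritic cells, which are strong producers of type I interferon, read 0 to 0.421 CPM in control epidermis and 0.567 and 0.345 in week 2 UVB. It read 1.42 and 1.72 in week 15 UVB, 3.51 and 4.08 in week 25 UVB, 1.12 and 7.13 in whole skin and 7.63 and 10.4 in tumor. Its order between the whole skin libraries is that of the members and of most other marker sums. Fibroblast markers summed to 591 and 1153 CPM there, and macrophage and monocyte markers to 385 and 572. T and NK cell markers went the other way, at 179 and 77.4. Of the 7 plasmacytoid dendritic cell markers listed, 6 were tested. At week 15 Bst2, a member here, was the 1 that rose, and at week 25 Bst2 and Siglech rose. As the mean over weeks 3 rose (Siglech, Bst2 and Klk1) and 2 fell, Ccr9 by 0.81 and Tcf4 by 0.42 on the log2 scale (adjusted p = 0.0114 and 0.0367). Ccr9 read 14.6 to 24.4 CPM in control epidermis and 8.03 to 20.4 in UVB epidermis. It read 2.34 and 2.67 in whole skin and 3.39 and 4.64 in tumor. The sum of the other 6 was 263 to 492 CPM in control epidermis and 250 to 294 in UVB epidermis, most of it Ly6d, which keratinocytes also express.

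The sum of 10 macrophage and monocyte markers was 33.3 to 65.0 CPM in control epidermis, 70.3 and 73.7 in week 2 UVB, 92.6 and 100 in week 15 UVB and 119 and 163 in week 25 UVB. It was 385 and 572 in whole skin and 610 and 729 in tumor. Of the 9 tested in epidermis, 6 rose at week 25, and 2 at week 15, beside 10.6% and 1.85% of all genes. At week 25, 7 of 10 Langerhans and dendritic cell markers, 4 of 5 tested neutrophil markers and all 6 tested fibroblast markers rose as well. Of the 5 neutrophil markers, 2 rose and 1 fell at week 2 (8.09% and 9.74% of all genes), and 1 rose at week 15. Their list holds S100a8, S100a9 and Cxcr2, which read 33.4 to 79.5 CPM in control epidermis. The fibroblast sum was 145 and 36.3 CPM in week 25 UVB and 3.91 and 7.07 in its controls. At week 15 no Langerhans or dendritic cell marker was called, and of the 6 tested fibroblast markers 1 fell and none rose. Both UVB libraries lay above both controls for 7 of the 10 Langerhans and dendritic cell markers (median log2 difference 0.78) and 2 of 6 fibroblast markers. The sum of 11 T and NK cell markers was 29.2 to 99.5 CPM in control and 15.4 to 55.2 in UVB epidermis. Of the 8 tested, 1 fell at week 2, 1 rose and 1 fell at week 15, and 2 rose and none fell at week 25. As the mean over weeks 2 of these rose and 3 fell. Of the 8 keratinocyte markers 3 rose at week 2 (8.09% of all genes), none was called at weeks 15 or 25, and 1 rose as the mean over weeks (14.4% of all genes). The part of infiltrating cells in the members' rise was not tested.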

How the data were processed

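RNA was sequenced from 16 libraries of female SKH-1 mouse skin in 8 groups of 2. Per the file headers, the authors removed duplicates before counting, and they deposited a table of whole-number gene counts (24421 rows, mm10 positions). Per the submitters' processing notes, HISAT2, Picard, featureCounts and DESeq2 were used with no versions. The annotation release, strand setting and handling of multi-mapping were not given in the sources used here, so overlapping genes and near-identical copies may share reads.

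edgeR 4.0.16 in R 4.3.3 was run on these counts. The filter on low counts was filterByExpr with a minimum count of 10 and a minimum total of 15, and TMM set the library sizes. The quasi-likelihood F test was used, with p-values adjusted over all genes tested and calls made below 0.05. The 12 epidermis libraries in 6 groups gave UVB at each week, its change between weeks and the controls over time (13478 genes). For the mean over weeks, week was an additive term. The 4 libraries of whole skin and tumor gave their own comparison (14661 genes), and all 16 gave both comparisons across tissues (15126 genes). CPM used TMM sizes of all 16 libraries. Where a group had 3 counts or fewer, the ratio is given with an exact 95% counting interval, which covers counting error only, or as a bound at a floor of 3 counts over the group. The tests were tried on simulated data, where tumor against whole skin made a larger share of false calls than the threshold allows.

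One signalling gene is not reported here. Members, lists and rules were chosen with earlier results of these data known. Given library by library were, for each role, the member with the highest mean CPM and that with the smallest p for the mean over weeks, members called at week 2 and members called against the majority. Alternatives were other size factors, DESeq2 1.42.0, no filter, other libraries in the fit, a replicate block and leaving out each library.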

Additional observations from a re-analysis of the deposited data

Results flagged for a closer look

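The effect of UVB differed between weeks 2 and 25 for 6 members by the interaction term of edgeR's fit, each larger at week 25. On the log2 scale the effect was larger by 4.92 ± 0.91 (SE) for Mx2 (adjusted p = 0.0149), by 3.56 ± 0.85 for Trim30a (adjusted p = 0.0321) and by 2.98 ± 0.76 for Mx1 (adjusted p = 0.039). It was larger by 3.17 ± 0.87 for Dhx58 (adjusted p = 0.0491), by 1.86 ± 0.50 for Ddx58 (adjusted p = 0.0458) and by 1.21 ± 0.32 for Stat2 (adjusted p = 0.0441).

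Mx1 read 12.7 and 40 CPM in week 2 controls against 12.5 and 9.85 under UVB, and 11.2 and 5 against 19.7 and 34.2 at week 25. Stat2 read 81.1 and 96.4 CPM against 67.1 and 57.7 at week 2, and 127 and 91.1 against 139 and 208 at week 25. In both genes UVB lay below the controls at week 2 and above them at week 25. Trim30a read 1.33 and 1.68 CPM against 2.27 and 1.38 at week 2, which overlap, and 1.55 and 0.625 against 16 and 15.2 at week 25. None of the 6 was called in either direction at week 2 alone.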

How the results depend on the processing

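Every one of the 97 calls of members kept its direction under the alternatives run, and 200 alternative values of these calls missed the threshold. Among values that were not called, Tap1 as the mean over weeks (-0.03) was 0.00 without a filter and -0.07 to 0.07 with each library left out in turn. Likewise left out, Ifih1 gave -0.16 to 0.49 at week 15 and -0.17 to 0.39 at week 25. Rsad2, Gbp2 and Isg15 at week 2, Ifitm3 at week 15 and Isg15 at week 25 passed the test in 12 alternatives. With other size factors no count of members moved by over 1.5 times. DESeq2 and the fit without a filter moved small counts: UVB at week 2 gave 4 and 5 higher (2 by edgeR) and 2 and 2 lower (0), week 15 gave 21 and 26 higher (11), the change from week 2 to 15 gave 2 and 3 (0), and that from week 2 to 25 gave 14 and 14 (6). In controls over time they gave 2 and 2 higher and 2 and 2 lower to week 15, and 3 and 3 higher and 1 and 1 lower to week 25, where edgeR with the filter gave 0. Fitted on the compared libraries alone, week 2 gave 1 higher and 1 lower, week 15 gave 20, tumor against UVB epidermis 15 higher and 3 lower, and whole skin against epidermis 11 higher and 1 lower. With the replicate number as a replicate block, the change from week 2 to 25 gave 2 members and tumor against whole skin 7, and other counts stayed within 1.5 times. Same-numbered libraries did not deviate together (correlations of deviations from -0.20 to 0.31 between groups), so the numbers are not taken to pair samples. Leaving out each library in turn gave 0 to 2 members higher and 0 to 2 lower for week 2, 1 to 12 higher for week 15, 7 to 26 for week 25 and 20 to 28 for the mean over weeks. It gave 0 to 3 for the change from week 2 to 15 and 0 to 15 for that from week 2 to 25. Controls over time gave 0 to 3 higher and 0 to 3 lower at week 15, and 0 to 4 higher and 0 to 2 lower at week 25. Tumor against whole skin gave 0 to 34 higher and 0 to 1 lower, tumor against UVB epidermis 0 to 2 higher, and whole skin against epidermis 10 to 27 higher and 1 to 4 lower. Where a group is left with 1 library, that library is assumed to vary like the others in the fit. The causes were not tested. Depth limits Ifit2, Ifit3, Ifi44, Zbp1 and Gbp3, with 3 counts or fewer in a group.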
